A study of Gallus gallus with 144 samples.

Results

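TIE1, FLT1, FLT4, ERG and SOX18 are genes of the endothelium, the cell layer that lines blood and lymph vessels. Their promoter peaks were taken from a list of transcription start sites mapped by CAGE, a method that sequences the capped 5′ ends of RNA. All peaks that the authors had labelled as a promoter of 1 of these 5 genes were used. They numbered 16 of the 24969 promoter peaks and belonged to 5 of the 10437 genes with such a label. The study sampled brain, breast, heart, kidney, leg and liver tissue from 24 chickens, 12 of a fast and 12 of a slow growth type, in 144 libraries, 12 for each tissue of each type. The labels used here name no breed, sex or age. What was analysed is a single list of 153662 peaks (GRCg6a build) in which all libraries are pooled, without peak heights or replicates. Growth types and tissues were therefore not compared, depth per library is unknown, and the label of these genes as endothelial could not be checked against cell type levels. All comparisons below are descriptions with no test, since the genes were chosen with earlier results of the same list known. Whether a peak came from endothelial cells or from others, and from many cells or from few with much RNA, cannot be told apart.

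Endothelial cells take their growth signals through a small set of receptor tyrosine kinases. FLT1 and FLT4 belong to the receptor family of the vascular endothelial growth factors, together with KDR, the main growth-promoting receptor of the family. FLT1 binds VEGFA tightly and limits how much of it reaches KDR, and FLT4 is the receptor for VEGFC and VEGFD and is best known from lymphatic vessels. TIE1 has no established high-affinity ligand of its own and pairs with TEK, the receptor for the angiopoietins. ERG is a transcription factor of the ETS family that keeps endothelial genes on, with FLI1 as its closest relative. SOX18 is a transcription factor of the SOXF group, with SOX7 and SOX17, and in mouse it acts at the start of lymphatic development.

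The labelled promoter peaks of each of the 5 genes lay in 1 short stretch of DNA. The outermost representative positions, the single position that the list gives inside each peak, lay at most 85 bp apart in any of them. Promoter peaks over 100 bp apart were counted as separate promoters. None of the 5 genes had such a gap, beside 19.0% of the other 10425 labelled genes, counting those with all promoter peaks on a single sequence and strand. FLT1, with 1 promoter peak, could not have such a gap, nor could the 3757 other genes with 1 peak that this share includes. At least 3 promoter peaks were found in 4 of the 5 genes, beside 36.4% of the other genes. TIE1, FLT4, ERG and SOX18 were picked with their numbers of promoter peaks known, so nothing is read from that count. Among the other endothelial genes listed below, ETS1 had 6 promoter peaks and FOXC1, NR2F2 and PTPRB had 4 each.

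TIE1 had 5 promoter peaks on the plus strand of chromosome 8, between 20011788 and 20011880. From the 5′ end their widths were 3, 9, 5, 13 and 16 bp. The steps between representative positions were 32, 19, 16 and 18 bp, so the last 4 peaks followed each other at a nearly even distance. The edges of neighbouring peaks came closer together toward the 3′ end, with 25, 12, 6 and 4 bp between them. The peaks covered 46 of the 93 bp from the first to the last base (49.5%). Their representative positions spanned 85 bp, against a median of 231.5 bp over the other 474 genes with 5 promoter peaks, and 22.4% of those genes had a smaller span. At least 5 promoter peaks were found in 9.40% of the other labelled genes.

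FLT4 had 4 promoter peaks on the plus strand of chromosome 13, between 14052952 and 14053061. Their widths were 6, 1, 11 and 34 bp, and the last was the widest of all 16 promoter peaks of the 5 genes. A width of at least 34 bp was found in 5.67% of all promoter peaks of the list, each counted singly. The widest peak was narrower than 34 bp in 85.7% of the other 942 genes with 4 promoter peaks, with a median of 18 bp. The steps between representative positions were 10, 20 and 53 bp, and the wide peak stood apart from the first 3 by an empty stretch of 40 bp. The span of 83 bp was close to the median of 92 bp over the other 942 genes with 4 promoter peaks, with 47.3% of them below it. The 1 bp peak was the narrowest promoter peak among the 5 genes. Without it FLT4 kept 3 peaks and the same span.

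FLT1 had a single promoter peak of 2 bp on the plus strand of chromosome 1, at 177165570 to 177165571. Of the other 3757 genes with 1 promoter peak, 13.0% had a narrower one, and their median width was 11 bp. FLT1 thus had the fewest promoter peaks of the 5 genes, while its paralog FLT4 had the widest one. Among all promoter peaks 10.1% were at most 2 bp wide.

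**Figure D1:**
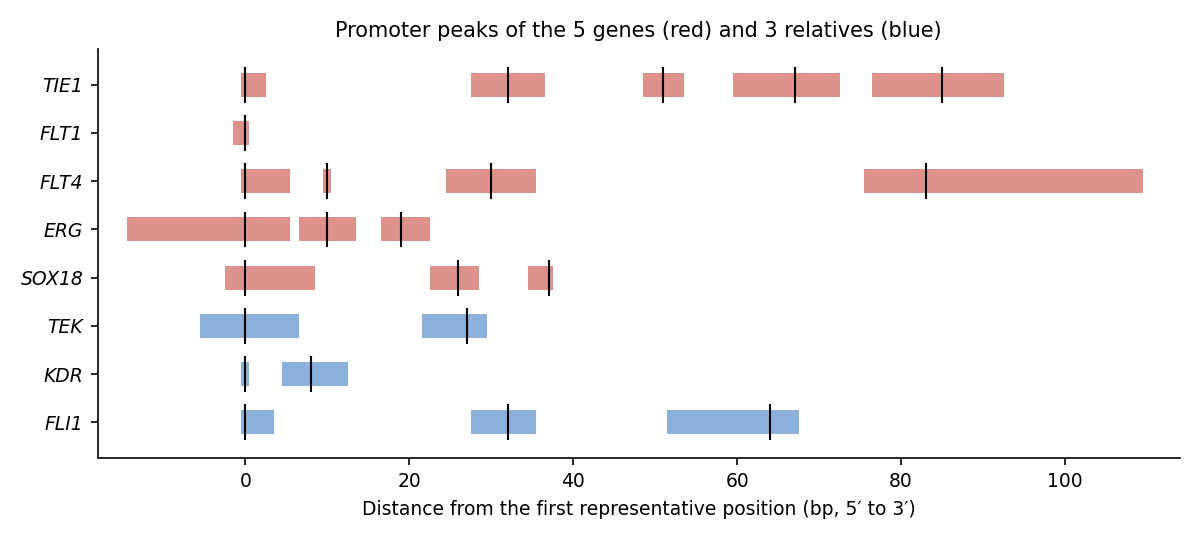
Promoter peaks of TIE1, FLT1, FLT4, ERG and SOX18 (red) and of their relatives TEK, KDR and FLI1 (blue), as bars from the first to the last base of each peak, against the distance in bp from the representative position of the 5′-most peak. Black ticks mark representative positions. All peaks of a gene lie within 110 bp, the 34 bp peak of FLT4 is the widest bar, and the 3 peaks of ERG nearly touch.

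ERG had 3 promoter peaks on the minus strand of chromosome 1, between 108972914 and 108972950. They were the most closely packed of the 5 genes. The 5′-most peak was 20 bp wide, and peaks of 7 and 6 bp followed after empty stretches of 1 and 3 bp. Together they covered 33 of 37 bp (89.2%). The span was 19 bp, against a median of 48 bp over the other 1873 genes with 3 promoter peaks, and 2.14% of those genes had a smaller span. With the representative position counted from the other end of minus-strand peaks, a reading that the list leaves possible, the span of ERG was 29 bp and 19.6% of those genes lay below it.

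SOX18 had 3 promoter peaks on the plus strand of chromosome 20, between 9380584 and 9380623. Their widths were 11, 6 and 3 bp, and they covered 20 of 40 bp (50%). The steps between representative positions were 26 and 11 bp. The span of 37 bp was nearer to the median of 48 bp than that of ERG, with 33.0% of the other genes with 3 peaks below it. In both transcription factor genes the widest peak was the 5′-most one, while in TIE1 and FLT4 it was the 3′-most one. The relatives were mixed. The widest peak was the 3′-most in the factor gene FLI1 (16 bp) and the 5′-most in the receptor gene TEK (12 bp). In the receptor gene KDR it was the 3′-most (8 bp).

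The labelled relatives also had all their promoter peaks in 1 short stretch. This did not hold for endothelial genes in general. Of the 37 labelled genes in the endothelial lists below, 10 had promoter peaks over 100 bp apart, beside 19.0% of other labelled genes. TEK, the receptor that pairs with TIE1, had 2 promoter peaks of 12 and 8 bp on chromosome Z, with representative positions 27 bp apart. KDR had 2 of 1 and 8 bp on chromosome 4, 8 bp apart, a span below which 0.87% of the other genes with 2 peaks lay. FLI1 had 3 of 4, 8 and 16 bp on chromosome 24, at steps of 32 and 32 bp. Its span of 64 bp was wider than that of its relative ERG. SOX7 and SOX17 carried no promoter label. Unlabelled peaks were not assigned to genes, so an absent label leaves unknown whether these genes had peaks.

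**Figure D2:**
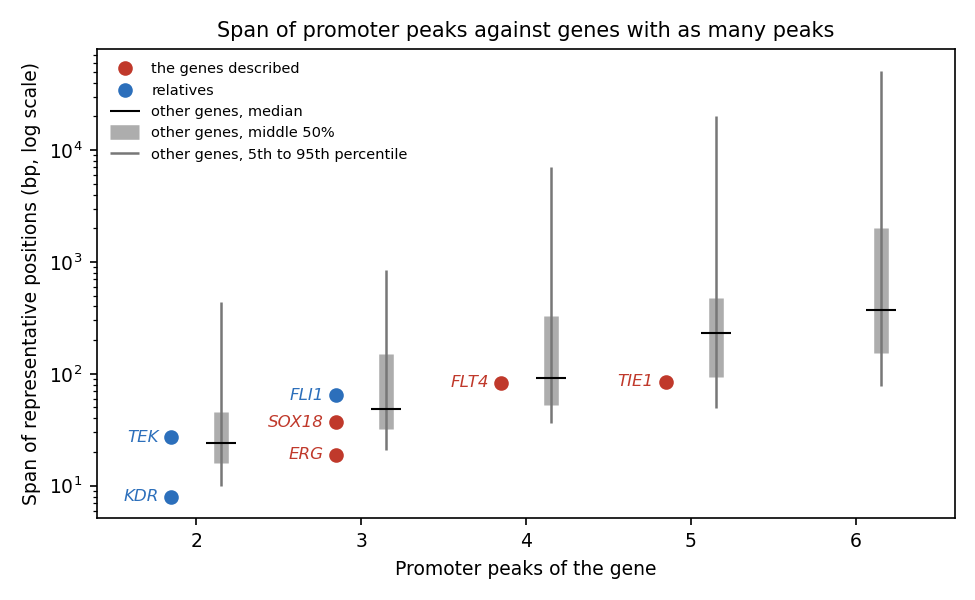
Span of the representative positions of a gene's promoter peaks (bp, log scale) against its number of promoter peaks, for 4 of the 5 genes (red) and 3 relatives (blue), with the median, the middle 50% and the 5th to 95th percentile of other labelled genes in grey and black. FLT1, with 1 peak, has no span. ERG (19 bp) and KDR (8 bp) lie below the grey line for their number of peaks, though under the other reading of minus-strand positions ERG, at 29 bp, would not, and FLT4 (83 bp) near the median.

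None of the 5 promoters had a divergent partner. Such a partner is a peak on the opposite strand that lies upstream and runs the other way. It was counted when its representative position was at most 400 bp upstream of that of any promoter peak of the gene. Of the other labelled genes 22.1% had one. Distances below were measured from the 5′-most promoter peak alone. The nearest opposite-strand peak upstream lay 2607 bp away from TIE1, 9702 bp from ERG, 12754 bp from SOX18, 15342 bp from FLT1 and 16122 bp from FLT4. The median over other genes was 6414 bp, so TIE1 was nearer than the median gene and the other 4 were farther. Still, with all peaks counted these distances were not extreme. A longer distance than at FLT4 was found in 26.5% of other genes, and a longer one than at TIE1 in 65.3%. The distance of ERG rested on a peak of 1 bp. No opposite-strand peak within 1000 bp upstream was found for any of the 5 genes, beside 74.3% of other genes. The relatives likewise had no partner, with distances of 12075 bp for FLI1, 27856 bp for TEK and 43246 bp for KDR.

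The upstream opposite-strand peaks differed in kind. At TIE1 they formed a group of 5 unlabelled minus-strand peaks of 2 to 12 bp, between 2607 and 2795 bp upstream. At least 5 such peaks within 5000 bp upstream were found at 2.54% of the other genes, a limit chosen after the group was seen. At SOX18 the nearest ones were the 3 promoter peaks of TCEA2, a transcription elongation factor gene, of 5, 48 and 6 bp between 12754 and 12907 bp upstream. At ERG it was a single peak of 1 bp. Without peaks of 1 bp, the nearest opposite-strand peak upstream of ERG lay 153903 bp away. The 99th percentile over other genes was 96756 bp, though with peaks of 1 bp kept. At FLT1 a group of 3 unlabelled peaks of 5, 9 and 1 bp lay 15342 to 15443 bp upstream, and at FLT4 single unlabelled peaks of 4 and 1 bp lay 16122 and 16909 bp upstream.

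**Figure D3:**
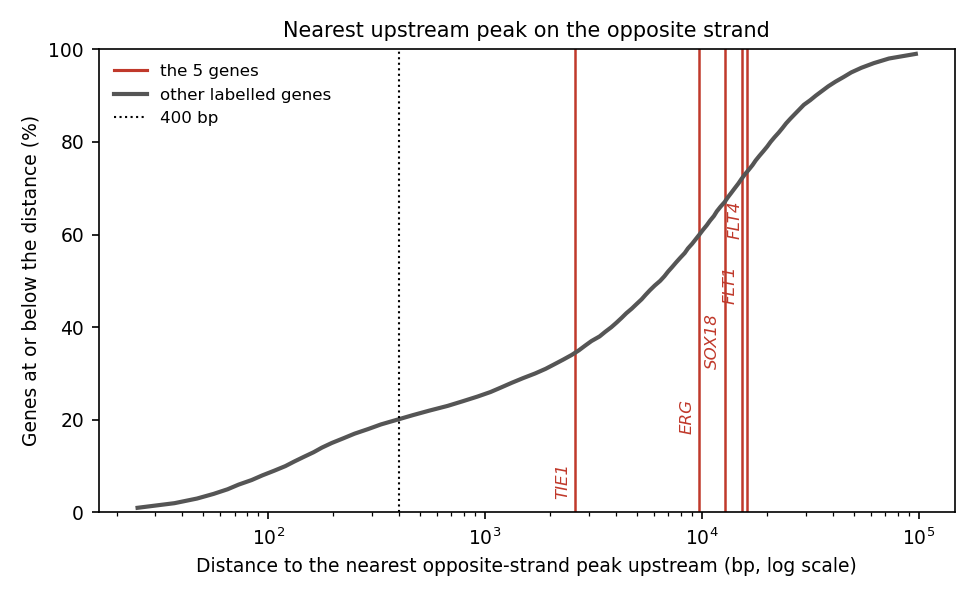
Distance from the 5′-most promoter peak to the nearest opposite-strand peak upstream (bp, log scale), with red lines for the 5 genes and a grey curve for the percent of other labelled genes at or below each distance. All 5 lines lie right of the dotted line at 400 bp, from TIE1 at 2607 bp to FLT4 at 16122 bp.

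Peaks without a promoter label were sparse around FLT1 and ERG. Within 50 kb on either side of the promoter peaks, TIE1 had 25 unlabelled peaks, SOX18 had 16, FLT4 had 14, ERG had 8 and FLT1 had 5. The median over other genes was 17, and the middle 50% of them lay between 11 and 25. TIE1 thus stood at the upper edge of that middle range, FLT4 and SOX18 inside it, and ERG and FLT1 below it. Fewer peaks than at FLT1 were found around 1.95% of other genes, and fewer than at ERG around 9.32%. Both genes lie on chromosome 1, where the median over other genes was 14, and there 2.64% and 12.4% of genes had fewer. Low counts were not limited to these genes. TEK also had 5, and KDR and FLI1 had 11 each, at the lower edge of the middle range. Over the labelled genes of the lists below, the median was 10 for ligands, 11 for receptors, 14 for surface proteins and 16 for transcription factors. With windows stopped at the next labelled promoter, FLT1 had 4, FLT4 and SOX18 had 7, ERG had 8 and TIE1 had 21, against a median of 9, so ERG then lay near the median. Within 20000 bp the counts were 3 for FLT4, 4 for FLT1, 5 for ERG, 7 for SOX18 and 16 for TIE1, against a median of 7. Within 100000 bp they were 16 for ERG, 18 for FLT1, 27 for SOX18, 32 for FLT4 and 35 for TIE1, against a median of 32. Windows of neighbouring genes overlap, so genes are not independent of each other in this measure.

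TIE1 had the most unlabelled peaks of the 5 genes in its window. All peaks in its window, its own included, numbered 34, while chromosome 8 as a whole held 15.6 peaks per 100 kb between its first and last peak. Here and below, a window around a labelled promoter always holds promoter peaks, so the chromosome average is not a like measure. Around other labelled genes of chromosome 8 the median was 17 unlabelled peaks, and 77.4% had fewer than TIE1. Of the 25 unlabelled ones, 8 were on its own strand upstream, 1 on its own strand downstream, 10 on the opposite strand upstream and 6 on the opposite strand downstream. The own-strand upstream peaks included 5 between 8801 and 11727 bp before the gene, the widest of 26 bp. Downstream on its strand came 1 unlabelled peak of 1 bp at 4590 bp. CDC20, a regulator of cell division, had a promoter peak of 6 bp on the same strand at 17395 bp. ELOVL1, a fatty acid elongase, had a promoter peak of 189 bp on the opposite strand at 37687 bp. Upstream, the nearest labelled promoter was that of FAM183A, 46498 bp away. The 3 protein-coding genes that precede TIE1 in the RefSeq gene order of the GRCg7b assembly, C1orf210, TMEM125 and CFAP57, carried no label.

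FLT1 had 8 peaks in its window, its own included, against 12.5 per 100 kb on chromosome 1. Its 1 own-strand unlabelled peak, of 1 bp, lay 13613 bp downstream, and no further peak was found up to 50000 bp. That empty stretch of 36387 bp was the longest in the windows of the 5 genes, but it was cut by the window edge. The longest at ERG, 31427 bp upstream of its promoter, was cut in the same way, so their order beyond the window is not given. The labelled promoter nearest on the upstream side was that of POMP, a proteasome assembly factor, with peaks of 14 and 12 bp on the opposite strand at 31188 and 31209 bp. On the downstream side it was that of GSX1, a homeobox gene, 278745 bp away. PAN3, FLT3 and CDX2, which follow FLT1 in the RefSeq order, had no label.

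**Figure D4:**
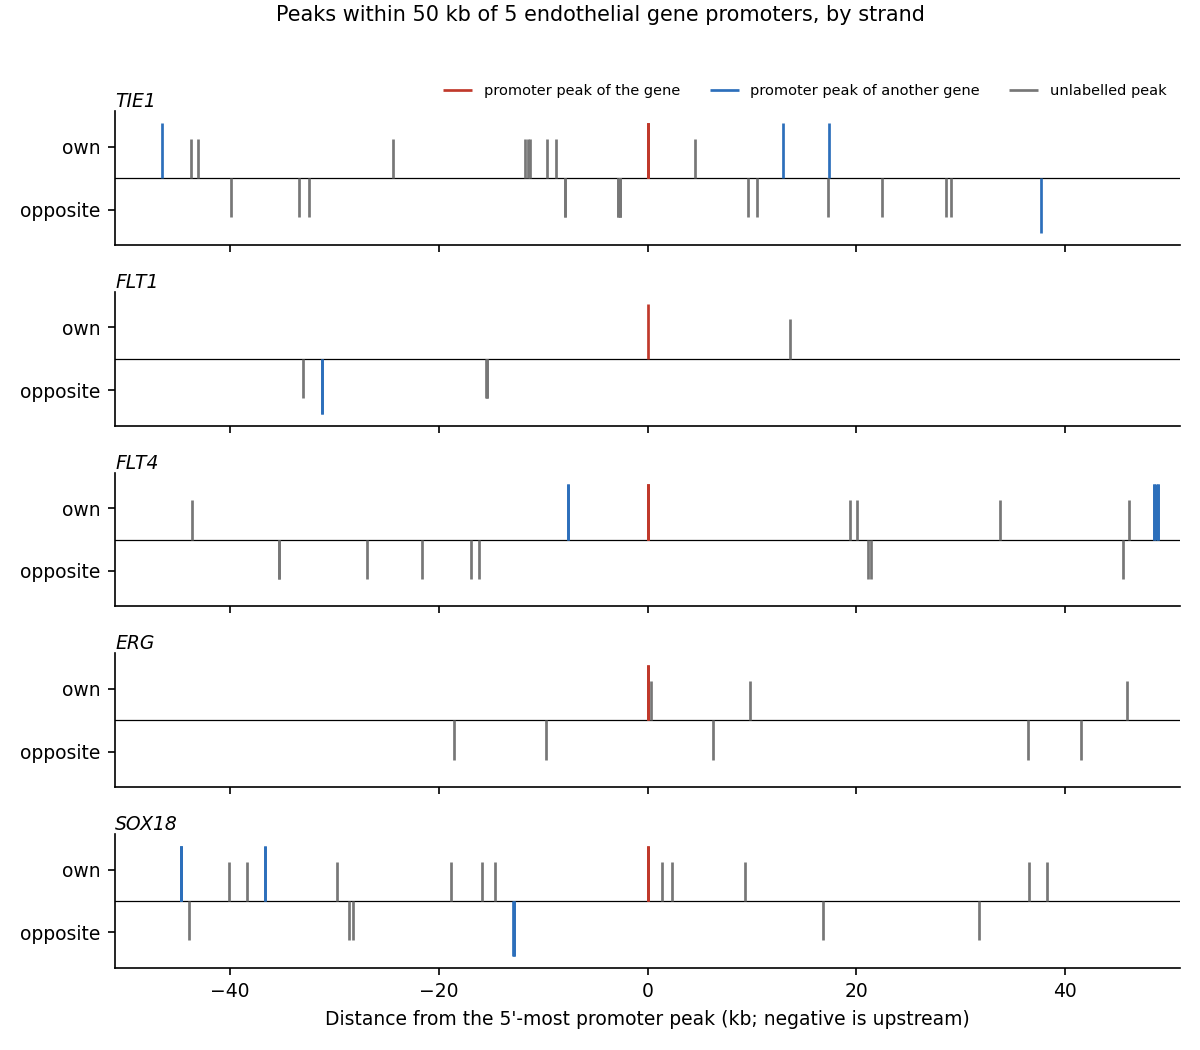
All peaks within 50 kb of the promoter peaks of TIE1, FLT1, FLT4, ERG and SOX18, against the distance from the 5′-most promoter peak (kb, negative upstream), with lines up for the gene's own strand and down for the opposite strand. Red marks the gene's own promoter peaks, blue those of other genes and grey unlabelled peaks. TIE1 has 34 peaks in its window and FLT1 has 8.

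FLT4 had 25 peaks in its window, its own included, against 16.7 per 100 kb on chromosome 13. Of these 14 were unlabelled, below the median of 17 around other labelled genes of that chromosome. They were 1 own-strand peak upstream, 4 own-strand peaks downstream, 6 opposite-strand peaks upstream and 3 opposite-strand peaks downstream. The first downstream peak on the strand of FLT4 came after 19391 bp, and no peak of either strand lay between it and the promoter. Of other genes 74.8% had a downstream own-strand unlabelled peak nearer than that. The widest unlabelled peaks downstream measured 19 bp at 33776 bp and 34 bp at 46119 bp, both on the strand of FLT4. RNF130, a ubiquitin ligase gene, had 5 promoter peaks on the same strand, the first of them 48519 bp from FLT4. The nearest labelled promoter upstream, with 2 peaks, belonged to a gene known in the list by the identifier ENSGALG00000021301 and lay 7627 bp away on the same strand.

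ERG had 11 peaks in its window, its own included, and no promoter of another gene. The unlabelled peak nearest to its promoter lay 329 bp downstream on its own strand and was 1 bp wide. A downstream own-strand unlabelled peak nearer than that was found at 15.4% of other genes, and other sides and strands were not counted. A pair of wider unlabelled peaks, of 35 bp each, lay 9790 bp downstream on its own strand and 41577 bp downstream on the opposite strand. The labelled promoters on either side were distant. ETS2, another ETS family gene, lay 158485 bp upstream on the opposite strand, and KCNJ15, a potassium channel gene, 126381 bp downstream on the opposite strand. In the RefSeq order ETS2 and KCNJ15 are also the next protein-coding genes on either side.

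SOX18 had 28 peaks in its window, its own included, against 18.1 per 100 kb on chromosome 20. Its 16 unlabelled peaks were below the median of 17 around other labelled genes of that chromosome. SOX18 was the 1 gene of the 5 with more unlabelled peaks on its own strand (11) than on the opposite one (5). In the others the counts were 9 and 16 for TIE1, 1 and 4 for FLT1, 5 and 9 for FLT4 and 3 and 5 for ERG. An excess of own-strand peaks was lacking at 50.8% of other genes, so 4 of 5 such genes are not read as a pattern. Downstream of SOX18 on its strand, unlabelled peaks of 18 and 16 bp lay 1434 and 2313 bp from the first promoter peak. Both were wider than any promoter peak of the gene. A downstream own-strand unlabelled peak nearer than 1434 bp was found at 30.9% of other genes. Upstream lay the promoters of TCEA2 and of RGS19, a regulator of G protein signalling with 6 peaks in 2 groups 36658 to 44736 bp away, and the nearest labelled one downstream was that of the splicing factor gene PRPF6 at 55087 bp.

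**Figure D5:**
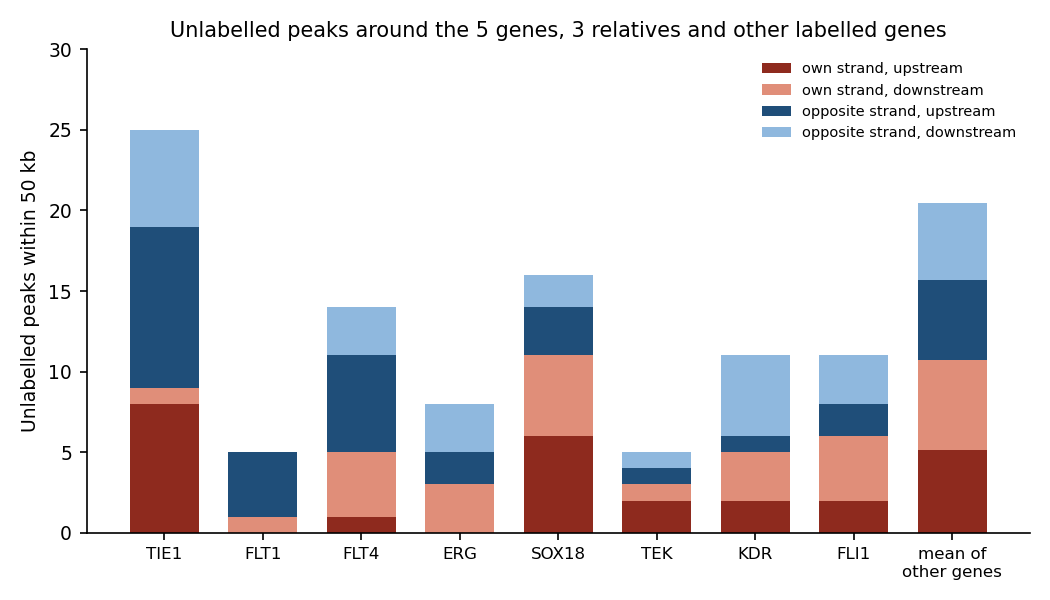
Number of unlabelled peaks within 50 kb of the promoter peaks, by strand and side, for the 5 genes, 3 relatives and, as a mean, the other labelled genes. Peaks between the promoter peaks of a gene are left out. FLT1 and TEK have 5 peaks each, TIE1 has 25, and the bar of SOX18 is mostly red for the own strand.

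No unlabelled peak lay between the promoter peaks of any of the 5 genes, beside 5.53% of other genes with at least 1. FLT1, with 1 promoter peak, could hold none, and the others spanned at most 85 bp. The 95th percentile of the span over other genes was 1199 bp, so nothing is read from this absence. The 68 unlabelled peaks around the 5 genes had a median width of 3 bp, against 7 bp over all 128693 unlabelled peaks, and 36.8% of them were 1 bp wide, against 27.2%. At FLT1 3 of 5 were 1 bp wide, at ERG 4 of 8, at FLT4 5 of 14, at TIE1 8 of 25 and at SOX18 5 of 16. All 5 genes had an unlabelled own-strand peak within 50 kb downstream, as did 93.6% of other genes.

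Other genes of endothelial signalling and identity were followed in 4 lists of ligands, receptors, surface and secreted proteins, and transcription factors, which together held 54 protein-coding genes with a symbol in the RefSeq table. Of these 37 carried a promoter label (68.5%), beside 57.0% of all 14357 such genes, or 57.6% when older symbols were matched too. At least 2 promoter peaks were found in 38.4% of all such genes. Of the 37, 2 had a divergent partner within 400 bp (5.41%), HEY2 and FOXC2, both transcription factor genes and named here after their values were seen. This share stands beside the 22.1% of other labelled genes, with no test. The sets are unlike, since the 22.1% also covers labelled genes without a protein-coding symbol in the RefSeq table. NOS3, with a partner 261 bp away, is such a gene and is not among the 37. Genes are not replicates, and the 95% Wilson intervals given below cover counting over genes alone.

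Ligand genes were labelled in 5 of 7 cases (71.4%, interval 35.9 to 91.8). ANGPT2, an angiopoietin that acts on TEK, PGF, a ligand of FLT1, and VEGFD, a ligand of FLT4 in mammals, had 2 promoter peaks each. VEGFC, the other ligand of FLT4, had 1, and VEGFA and ANGPT4 had no label. Genes of the receptor list were labelled in 11 of 13 cases (84.6%, interval 57.8 to 95.7). This list also held Notch ligands, which were labelled and count among the 11, not among the ligand genes. PTPRB, a phosphatase that acts on TEK, had 4 peaks, NOTCH1 had 3, and ENG, a co-receptor for the TGF-beta family, had 2. ACVRL1 and ROBO4 had no label.

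Surface and secreted protein genes were labelled in 9 of 16 cases (56.2%, interval 33.2 to 76.9), with 3 peaks at ADGRL4 and 2 each at CDH5, the cadherin of endothelial junctions, and MMRN1. CALCRL, EMCN and ESAM were among the 7 without. NOS3, the endothelial nitric oxide synthase, had 1 promoter peak and a partner 261 bp away but was not among the 16 genes, since the RefSeq table did not hold it as a protein-coding symbol. Transcription factor genes were labelled in 12 of 18 cases (66.7%, interval 43.7 to 83.7). ETS1 had 6 peaks and FOXC1 and NR2F2, a factor of venous identity, had 4 each, while GATA2, HHEX and LMO2 were among the 6 without. Beside TIE1 with 5 peaks, ETS1 was thus the 1 listed endothelial gene with more.

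The sampled tissues also hold the mural cells that wrap vessels and blood cells. Mural cell genes were labelled in 4 of 8 cases (50%, interval 21.5 to 78.5), led by KCNJ8, a potassium channel of pericytes, with 5 peaks, while RGS5 and ACTA2 had 1 each. ABCC9, CSPG4 and MYH11 had no label. A further gene of the mural list also had 5 promoter peaks. It is not among the 8, since the RefSeq table did not hold it as a protein-coding symbol. Blood cell genes were labelled in 5 of 8 cases (62.5%, interval 30.6 to 86.3), with 3 peaks each at CSF1R and KIT and 2 at ITGB3, and none at GP9, PTPRC and RUNX1. Endothelial, mural and blood lists thus all held labelled genes, and the tissue or cell type behind a peak is unknown in the pooled list.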

How the data were processed

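CAGE libraries were made from total RNA with molecular identifiers, per the labels' protocols. The submitters' processing notes give GRCg6a as the build and UMI-tools 1.1.4 and STAR 2.7.9a as tools. The name of the deposited list holds the words DPI and robust for its peaks. Settings of the peak calling, threshold and promoter label rule were not given in the sources used here. A single peak list without header was deposited by the authors. Both score columns of the deposited list held 1 in every row. A further deposited column gave an offset, always below the peak width, read here as the representative position counted from the lower coordinate. Starts are printed 1-based.

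Chromosome names were assigned from the sequence accessions, and for 8059 of 8068 genes (99.9%) the name matched that in the RefSeq table of GRCg7b, which served for names and gene order. Comparisons leave out 7 genes labelled on several sequences or strands. Members and lists were chosen with earlier results of these data known. Named genes were the 5 genes, labelled genes within 50000 bp, 5 relatives, and up to 3 genes of each list with the most promoter peaks and 3 without a label. A gene that this rule takes is not reported here. The planned motif search, tests of growth type and tissue, and likeness over samples were not run, since no promoter sequences and no values per library were used here. Python 3.11.15, numpy 2.4.6, pandas 2.3.3, scipy 1.17.1 and matplotlib 3.10.9 were used, and the counting was tested on simulated data.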

Additional observations from a re-analysis of the deposited data

How the results depend on the processing

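The list has no counts or replicates, so depth and peak height limit every result in a way that could not be measured, and no library could be left out. No paired analysis was possible because the list has no column per library. Merging promoter peaks of a gene with under 20 bp between their edges left 7 of the 16 promoter peaks, 2 each for TIE1 and FLT4 and 1 each for the other genes. With a limit of 50 bp between representative positions, 1 gene (FLT4) had more than 1 separate promoter. With divergent partners allowed up to 5000 bp away, a limit chosen after seeing the data, 1 gene (TIE1) had one, beside 47% of other genes. At 200 and 1000 bp none had one. The unlabelled peaks around the 5 genes numbered, as a total over all 5, 35 within 20000 bp, 128 within 100000 bp and 43 without peaks of 1 bp. The median for a single other gene was 7, 32 and 12, which is not a like measure to these totals. Stopping windows at the next labelled promoter left a total of 47 peaks over the 5 genes and a median of 9 for a single other gene. At least 2 promoter peaks were found in 42.9% of ligand, 61.5% of receptor, 31.2% of surface protein, 50% of transcription factor, 12.5% of mural and 37.5% of blood cell genes, beside 38.4% of all genes. Older symbols changed no list share and brought all genes to 57.6%. Leaving out unplaced sequences changed no rank of the 5 genes by number of unlabelled peaks, and was not tried for their other ranks.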

Other observations

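Some endothelial genes outside the 5 had promoters of another shape, and all were picked here after their values were seen. ANGPT2, the ligand that acts on TEK, had a promoter peak of 371 bp, and FOXC2, a factor of lymphatic valves, had one of 219 bp, beside 1.16% of all promoter peaks over 100 bp wide. No promoter peak of TIE1, FLT1, FLT4, ERG and SOX18 was wider than 34 bp. Only 5.67% of all promoter peaks were at least 34 bp wide, so this is not particular to the 5 genes. ETS1, from the family of ERG, spread its 6 promoter peaks over 25850 bp, and NR2F2 its 4 over 5188 bp. The nearest opposite-strand peak upstream lay 181188 bp from ADGRL4, 112374 bp from NRP1, a co-receptor of the vascular endothelial growth factor receptors, and 99476 bp from CDH5, while at HEY2 it lay 75 bp and at FOXC2 152 bp away.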
